A study of Mus musculus with 24 samples.

Results

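Cholesterol and fatty acid metabolism genes are described here in mouse blood progenitors. The set was a named list of 38 genes for sterol synthesis, its control by the SREBP factors, fatty acid synthesis and desaturation, and sterol transport. A gene was taken from array probe sets that carry its symbol alone, with the brightest probe set over all arrays standing for it. In this way 36 of the 38 genes had values, among 12393 genes named on the array. Acat2 and Insig1 had no such probe set and were not analysed here.

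All cells were from C57BL/6 mice, and each of the 24 arrays held RNA of 1 sample. Granulocyte monocyte progenitors (GMP), which give rise to neutrophils and monocytes, were infected by spinoculation with an empty GFP vector (GFP, 3 arrays) or with a leukemia fusion oncogene. The oncogenes were MOZ-TIF2 (MT2, 4 arrays), NUP98-HOXA9 (NHA9, 3) and AML1-ETO (AE, 4), and cells positive for GFP were lysed after 36 hours. The other 10 arrays held cells sorted without this culture. They were normal GMP (4 arrays), normal LSK cells (3 arrays), titled HSC, a population that holds blood stem cells, and leukemic stem cells (L-GMP, 3 arrays), which carry the GMP surface type and come from MOZ-TIF2 leukemia. No label ties a replicate to its own animal, culture or infection, so p-values reflect only the spread between these arrays, which may be technical.

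Cells make cholesterol from acetyl-CoA through mevalonate, isoprenoid diphosphates and squalene, and then trim the first ring-closed sterol, lanosterol, to cholesterol. When cholesterol in the endoplasmic reticulum is low, Scap escorts the SREBP factors, encoded by Srebf1 and Srebf2, to the Golgi, where cleavage frees them to switch on sterol and fatty acid genes. Insig1 holds Scap back when sterols are plentiful, and excess cholesterol leaves the cell through Abca1 and Abcg1, whose genes respond to the sterol-sensing LXR receptors. Macrophages are known for strong expression of this export arm and of Apoe.

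Promoter sequence is shown first for 4 sterol synthesis genes that were higher together in the transduced cells and for Abca1, an export gene that followed a different pattern. These are the 180 bases before the start of the gene in RefSeq, genome build GRCm38.p6, written 5′ to 3′ on the strand of the gene. Capitals mark CCAAT, the box bound by NF-Y, read on either strand (ATTGG on the other), and TCACNCCAC, a core of the sterol regulatory element bound by SREBP. The 2 motifs did not overlap. The stretches lie at chr13:119690171-119690350 on the plus strand (Hmgcs1), chr13:8885426-8885605 on the plus strand (Idi1), chr5:4104698-4104877 on the minus strand (Cyp51), chr8:64733579-64733758 on the minus strand (Msmo1) and chr4:53159896-53160075 on the minus strand (Abca1).
Hmgcs1: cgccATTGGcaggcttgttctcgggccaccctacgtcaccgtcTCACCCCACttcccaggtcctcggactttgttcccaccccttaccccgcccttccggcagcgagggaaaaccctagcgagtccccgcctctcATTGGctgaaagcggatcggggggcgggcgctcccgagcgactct
Idi1: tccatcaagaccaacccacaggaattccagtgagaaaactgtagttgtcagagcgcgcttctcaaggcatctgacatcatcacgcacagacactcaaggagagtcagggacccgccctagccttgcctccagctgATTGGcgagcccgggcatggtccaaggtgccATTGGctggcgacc
Cyp51: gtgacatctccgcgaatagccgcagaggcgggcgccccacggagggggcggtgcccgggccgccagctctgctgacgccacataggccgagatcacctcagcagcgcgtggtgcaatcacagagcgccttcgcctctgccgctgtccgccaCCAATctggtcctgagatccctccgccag
Msmo1: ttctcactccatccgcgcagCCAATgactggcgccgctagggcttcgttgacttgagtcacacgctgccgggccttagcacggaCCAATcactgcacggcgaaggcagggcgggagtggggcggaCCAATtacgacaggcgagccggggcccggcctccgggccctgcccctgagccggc
Abca1: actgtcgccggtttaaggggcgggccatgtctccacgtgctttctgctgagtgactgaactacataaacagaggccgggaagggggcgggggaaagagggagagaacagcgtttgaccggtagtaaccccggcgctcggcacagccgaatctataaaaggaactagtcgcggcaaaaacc
The Hmgcs1 stretch held the sterol element once and CCAAT 2 times, Msmo1 held CCAAT 3 times, Idi1 2 times and Cyp51 once, and Abca1 held neither motif. Windows from 250 bases before to 50 after the start were given for 27 of the 36 genes, 14 of them sterol synthesis enzymes. CCAAT was present for 14 of those 14 enzymes and for 20 of the 27 genes, against 41.1% of 27025 genes with a window. TCACNCCAC was present for 1 of the 27 genes, Hmgcs1, against 1.44% of all genes. A match is a description of letters and not a binding site.

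The values are the authors' log2 expression estimates, on which 1 unit is a doubling, and levels of different genes are not compared because probes differ. The authors' lower limit for an expressed gene was a linear value of 60 (5.91 on the log2 scale). A gene was tested in a comparison where its value was over 60 on at least 2 arrays of a compared group, and it is called where limma's adjusted p, taken over all probe sets tested, was under 0.05. Acaca, Scd1 and Fads2 stayed at or under that level in nearly all arrays and were tested in no comparison. In bulk RNA, fewer cells of a type and less RNA per cell cannot be told apart. The share of probe sets over 60 was 46.1% to 48.3% on each array. All 8 GMP markers with values (such as Mpo and Elane) were over 60 on every array of all groups but L-GMP, where 7 to 8 were, and the summed linear signal of the LSK markers was 4343 to 5760 in LSK against 473 to 2141 elsewhere. The best correlation with another array of its group was 0.955 for L-GMP 1, 0.978 for GMP 2, 0.979 for NHA9 3 and AE 1, 0.980 for L-GMP 2 and L-GMP 3 and between 0.991 and 0.996 for each other array. At the Gapdh and actin control probes, the log2 gap between 3′ and 5′ signal, which grows as RNA degrades, was 4.82 and 3.45 on L-GMP 1, more than on any other array. The Gapdh gap was 3.40 to 4.33 in GMP and 2.71 to 3.60 in GFP GMP. The actin gap was 2.35 to 2.95 in GMP and 2.44 to 2.75 in GFP GMP. GMP 2 had the widest gap of the GMP arrays at both probes. The part of these gaps in the differences between groups was not tested. Array files carry a tag: A covers all 3 GFP arrays, 3 GMP, 3 MT2, 2 NHA9, 1 AE, 2 LSK and 1 L-GMP arrays, and the others have tag B or none.

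**Figure D1:**
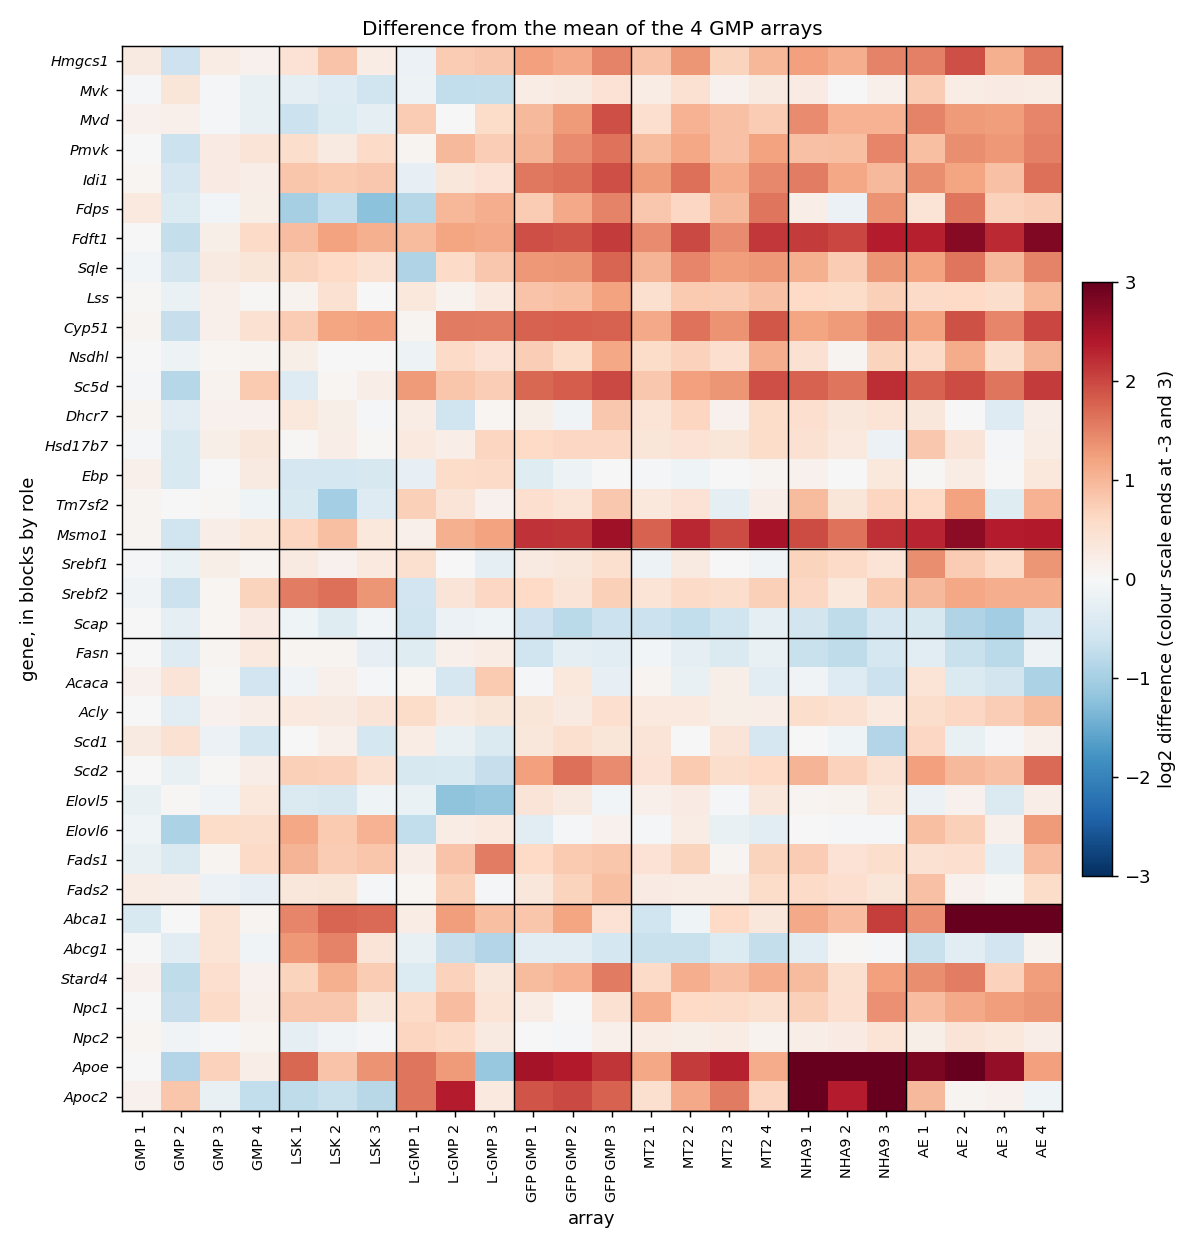
Each cell is a gene (rows, ordered by role) on 1 array (columns, ordered by group), coloured by its log2 value minus the gene's mean over the 4 GMP arrays, with colour ends at -3 and 3 and blue to red for low to high. Most sterol synthesis rows are red on the transduced arrays, the Abca1 row is reddest on AE arrays 2 to 4, and GMP 2 is blue for many sterol genes.

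Most enzymes of cholesterol synthesis were higher in GFP GMP than in freshly sorted GMP. This comparison shows the state of the control cells against which the oncogenes were read. Of 17 sterol synthesis enzymes, 13 were called higher and 0 lower, with a median log2 difference of 1.28, while the median over all genes was -0.05. Over the whole set, 17 of 32 genes tested were higher and 1 was lower, where 16.6% of all genes tested were called, 8.77% as higher and 7.83% as lower. Infection, culture and collection by GFP cannot be told apart here.

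The early, mevalonate part of the pathway was higher from its first listed enzyme on. Hmgcs1, which makes HMG-CoA, read 10.41, 9.53, 10.38 and 10.28 on the GMP arrays and 11.38, 11.29 and 11.63 on the GFP arrays. The groups did not overlap, and GMP 2 was the lowest array. The GFP arrays were higher by 1.28 (SE 0.23, adjusted p = 0.00615). Pmvk, a kinase that phosphorylates phosphomevalonate, differed by 1.36 (adjusted p = 0.00881) and Mvd, which decarboxylates the product, by 1.39 (adjusted p = 0.00413). Mvk, the first kinase, was not called (0.31, SE 0.17, adjusted p = 0.264), and its groups overlapped. Idi1, which interconverts the isoprenoid building blocks, read 7.70, 7.15, 7.89 and 7.84 in GMP and 9.24, 9.31 and 9.58 in GFP GMP. Every GFP array was over every GMP array, with a difference of 1.73 (SE 0.21, adjusted p = 0.000759). Fdps, which joins these blocks to farnesyl diphosphate, was higher by 1.13 (adjusted p = 0.0108).

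The steps from squalene to lanosterol followed the same direction. Fdft1, squalene synthase, read 6.66, 5.97, 6.85 and 7.25 in GMP and 8.61, 8.56 and 8.79 in GFP GMP. The lowest GFP array was over the highest GMP array, and the difference was 1.97 (SE 0.27, adjusted p = 0.00155). The probe set used is of a design that may bind related transcripts, and the other Fdft1 probe set over 60 gave 1.71. Sqle, squalene epoxidase, was higher by 1.46 (SE 0.24, adjusted p = 0.00391). Lss, which closes the rings to lanosterol, was higher by 0.99 (SE 0.16, adjusted p = 0.0034).

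Among the enzymes that trim lanosterol, Msmo1, a methyl sterol oxidase, had the largest difference of the 17. It read 6.19, 5.51, 6.32 and 6.44 in GMP and 8.27, 8.26 and 8.65 in GFP GMP. All GFP arrays were well over all GMP arrays, by 2.28 on average (SE 0.24, adjusted p = 0.000355). Cyp51, which removes a methyl group from lanosterol, was under 60 on all 4 GMP arrays (5.44, 4.65, 5.50 and 5.80) and read 7.10, 7.14 and 7.12 in GFP GMP. Taken against the level of 60, Cyp51 was at least 2.32-fold higher in GFP GMP (adjusted p = 0.00181). Sc5d, a sterol desaturase near the end of the path, was higher by 1.84 (SE 0.32, adjusted p = 0.00531). Nsdhl, of the demethylation complex, was higher by 0.82 (adjusted p = 0.0144) and Tm7sf2, a sterol reductase, by 0.58 (adjusted p = 0.0325). Hsd17b7, a reductase of the same complex, was not called (0.61, SE 0.20, adjusted p = 0.0665), though its groups did not overlap. Dhcr7, which catalyses a last step of cholesterol synthesis, differed by 0.30 (adjusted p = 0.447) and Ebp, a sterol isomerase, by -0.17 (adjusted p = 0.621), both with overlapping groups.

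**Figure D2:**
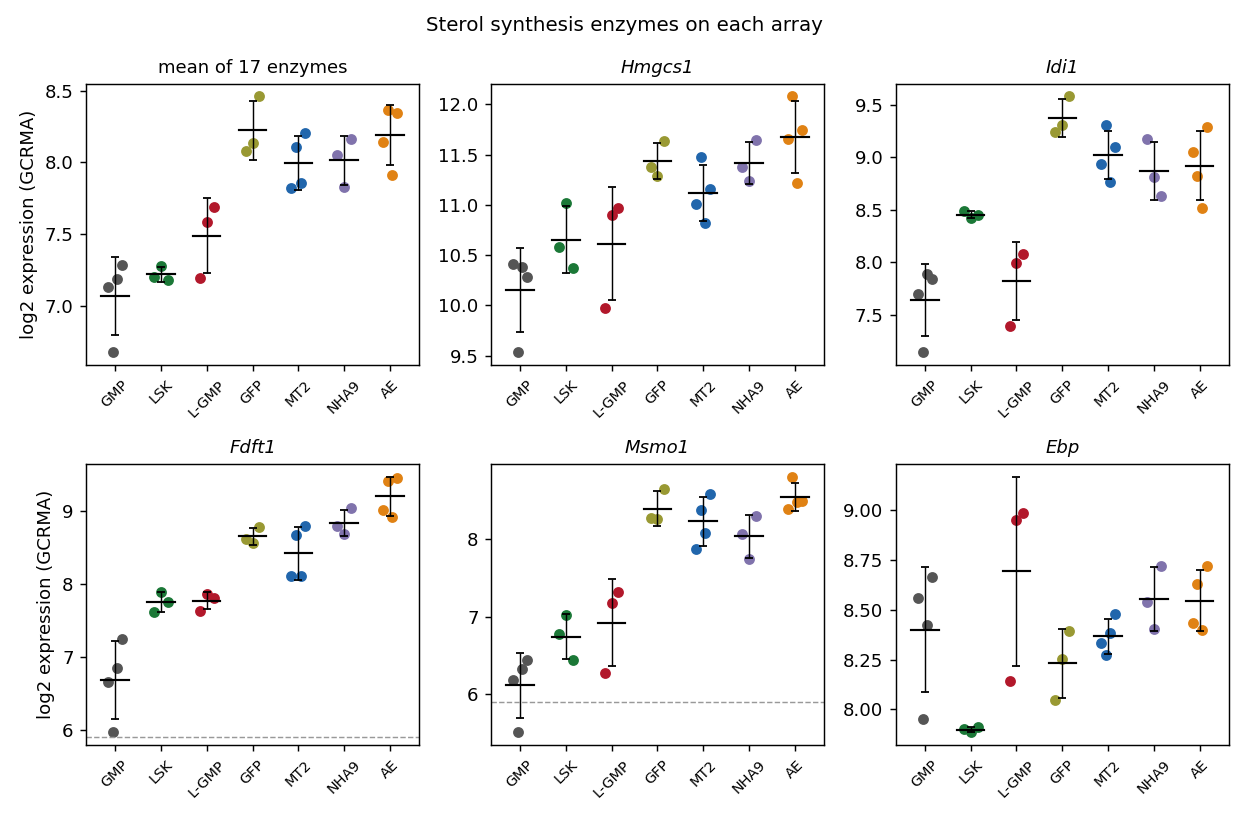
Points are arrays, grouped along the horizontal axis, with the log2 value on the vertical axis and bars giving mean and SD per group; the first panel is the mean of the 17 sterol synthesis enzymes and the dashed line is the level of 60. The mean of the enzymes lies between 7.82 and 8.46 on all 14 transduced arrays and between 6.68 and 7.69 on the arrays of GMP, LSK and L-GMP, while Ebp does not follow this split.

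The mean over the 17 enzymes was 7.07 ± 0.27 (SD, n = 4) in GMP and 8.22 ± 0.21 (SD, n = 3) in GFP GMP, and 8.00 ± 0.19 (n = 4) in MT2, 8.01 ± 0.17 (n = 3) in NHA9 and 8.19 ± 0.21 (n = 4) in AE. Each transduced array thus had a higher mean than each GMP, LSK or L-GMP array. For 11 of the 17 enzymes, all 14 transduced arrays were over all 4 GMP arrays. These were Hmgcs1, Mvd, Pmvk, Idi1, Fdft1, Sqle, Lss, Cyp51, Nsdhl, Sc5d and Msmo1. The same held for Scd2 and Apoe, so 13 of the 36 genes, where 6.76% of all genes did so. No gene of the set had all transduced arrays under all GMP arrays, against 2.59% of all genes.

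The genes that control the pathway moved less. Srebf1 read 8.21, 8.07, 8.44 and 8.35 in GMP and 8.55, 8.62 and 8.76 in GFP GMP. Its groups did not overlap, but the difference of 0.37 (SE 0.15, adjusted p = 0.133) was not called. Srebf2 differed by 0.57 (SE 0.28, adjusted p = 0.205) with overlapping groups, and its second probe set by 0.17. Within tag A, Srebf2 was called (0.79, SE 0.21, adjusted p = 0.0391). Scap was the 1 gene of the set called lower. It read 7.73, 7.45, 7.80 and 8.00 in GMP and 7.12, 6.93 and 7.09 in GFP GMP, a difference of -0.70 (SE 0.16, adjusted p = 0.0207) without overlap.

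Of the fatty acid genes, Scd2, a desaturase that makes monounsaturated fatty acids, was the 1 called among 6 tested. It read 9.61, 9.38, 9.65 and 9.81 in GMP and 10.84, 11.26 and 11.04 in GFP GMP. The groups were far apart, by 1.43 (SE 0.17, adjusted p = 0.000694), and its 2 dimmer probe sets gave 1.10 and 0.99. Fasn, the fatty acid synthase, differed by -0.41 (adjusted p = 0.175) and Acly, which supplies cytosolic acetyl-CoA, by 0.38 (adjusted p = 0.165). Fads1, a desaturase of polyunsaturated fatty acids, differed by 0.74 (adjusted p = 0.0615). The elongases Elovl5 and Elovl6 differed by 0.19 (adjusted p = 0.549) and -0.09 (adjusted p = 0.899). Scd1, the other desaturase of this kind on the array, ranged from 3.68 to 5.18 over all 24 arrays, Acaca, acetyl-CoA carboxylase, from 3.57 to 5.31, and Fads2 from 4.94 to 6.09.

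Sterol carriers and apolipoproteins split. Apoe, a lipoprotein component that takes up exported cholesterol, read 9.13, 8.24, 9.81 and 9.33 in GMP and 11.63, 11.51 and 11.27 in GFP GMP. No array overlapped, and the difference of 2.34 (SE 0.32, adjusted p = 0.00159) was the largest of the set. Apoc2, which activates lipoprotein lipase, was higher by 1.88 (SE 0.32, adjusted p = 0.00477) and Stard4, a cytosolic cholesterol carrier, by 1.18 (SE 0.29, adjusted p = 0.0247). Abca1 was at the edge of the threshold (0.82, SE 0.24, adjusted p = 0.0504), with GMP arrays at 5.14, 5.58, 6.01 and 5.68 and GFP arrays at 6.43, 6.79 and 6.04. Abcg1, its partner in export, differed by -0.40 (adjusted p = 0.191). Npc2, a lysosomal cholesterol carrier, differed by 0.03 (adjusted p = 0.908), and Npc1, the membrane protein it hands cholesterol to, was not tested because too few arrays were over 60. Macrophage markers moved in the same direction as Apoe and Apoc2. Their summed linear signal over 12 markers was 874 to 1080 in GMP and 1983 to 2958 in GFP GMP, with 3 to 6 and 6 to 8 of the 12 over 60 on an array. Of the 7 markers tested 5 were called higher, while Mrc1, Marco and Mertk were under 60 on every GMP and GFP array. Markers of mast cells, basophils and eosinophils moved the other way, with 5 of 5 tested called lower and a summed signal of 2381 to 2996 in GMP against 584 to 749 in GFP GMP. Erythroid and megakaryocyte markers had 5 of 7 called lower, with sums of 1402 to 2506 against 654 to 908. The part of these other cell types in the differences of the set was not tested.

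Leaving out 1 array at a time gave 13 to 24 called genes, with 24 when GMP 2 was left out, and 13 of the 18 were called each time (not Fdps, Nsdhl, Tm7sf2, Scap and Stard4). The methods' t-test called 5, where it called 5.80% of all genes, and 20 were called within tag A, beside 16.4% of all genes.

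Of 51 tested genes in 5 further lists of the pathway, 15.7% were called, beside the 16.6% of all genes. Of 12 tested genes of sterol synthesis, SREBP processing and uptake, 0 were higher and 1 was lower: Nfya, a subunit of the factor that binds CCAAT (-0.96, SE 0.25, adjusted p = 0.0289). Of 10 genes of LXR control and efflux, 1 was higher: Scarb1, a lipoprotein receptor (0.86, adjusted p = 0.0255). In fatty acid synthesis and activation, Fabp5, a fatty acid carrier, was lower (-0.74, adjusted p = 0.0225) as the 1 called of 8, and in fatty acid oxidation Eci1, an enoyl-CoA isomerase, was lower (-0.65, adjusted p = 0.0429) as the 1 called of 12. Lipid storage genes had 4 called of 9, all higher. These were Dgat2 (1.65, SE 0.16, adjusted p = 0.000281) and Dgat1 (0.73, adjusted p = 0.03), which complete triglyceride synthesis, and Plin3 (0.95, adjusted p = 0.0089) and Plin2 (0.79, adjusted p = 0.00636), which coat lipid droplets.

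**Figure D3:**
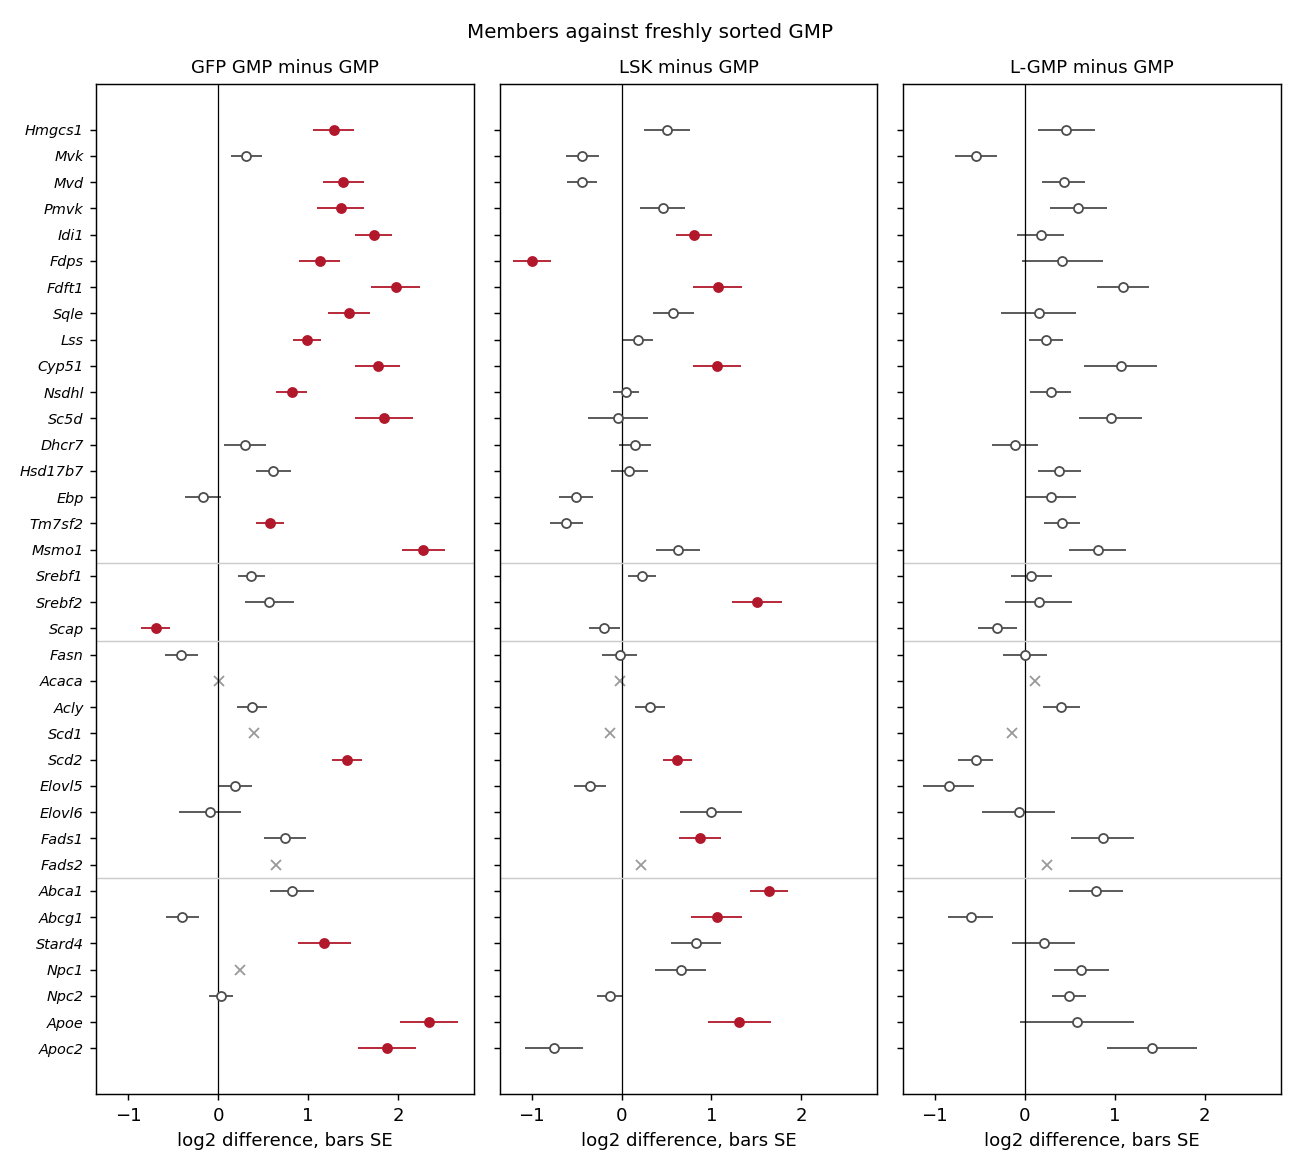
Each row is a gene of the set and each panel a comparison with GMP (GFP GMP, LSK and L-GMP); points are log2 differences with SE bars on the horizontal axis, filled red where the adjusted p was under 0.05, open where not, and crosses where not tested. The GFP panel holds 18 filled points, 17 of them to the right of 0, the LSK panel 10 and the L-GMP panel 0.

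LSK cells differed from GMP in 10 genes of the set, among them the exporters Abca1 and Abcg1 and 4 sterol synthesis enzymes. The comparison sets a population that holds stem cells beside the more committed GMP. Of 33 genes tested, 9 were higher in LSK and 1 was lower, where 16.4% of all genes tested were called, 11.2% as higher and 5.27% as lower. The median difference was 0.32, against 0.06 over all genes. The same GMP arrays serve in this comparison and the one with GFP GMP, so the values stand side by side without a count in common.

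Abca1 read 7.06, 7.35 and 7.30 in LSK, over all 4 GMP arrays, of which 1 was over 60 (mean 5.60). The difference was 1.64 (SE 0.21, adjusted p = 0.0015). Abcg1 read 9.52, 9.72 and 8.61 in LSK and 8.23, 7.92, 8.64 and 8.12 in GMP. LSK 3 lay within the GMP range, and the difference was 1.06 (SE 0.28, adjusted p = 0.0344). Srebf2 read 8.45, 8.58 and 8.24 in LSK and 6.82, 6.28, 6.99 and 7.60 in GMP. The groups did not overlap and differed by 1.50 (SE 0.28, adjusted p = 0.00754), but the second Srebf2 probe set differed by 0.31 only. Srebf1 (0.23, adjusted p = 0.353) and Scap (-0.19, adjusted p = 0.495) were not called.

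In sterol synthesis, 3 enzymes were higher in LSK and 1 was lower. Idi1 read 8.49, 8.43 and 8.45 in LSK and was higher by 0.81 (SE 0.20, adjusted p = 0.0249). Fdft1 was higher by 1.07 (SE 0.27, adjusted p = 0.0287), and Cyp51, with every GMP array under 60, by at least 1.41-fold (adjusted p = 0.0278). Fdps moved the other way, at 8.08, 8.32 and 7.84 in LSK against 9.38, 8.66, 9.00 and 9.26 in GMP. Its groups did not overlap, and the difference was -0.99 (SE 0.21, adjusted p = 0.0132). Scd2 was higher by 0.62 (adjusted p = 0.0304), Fads1 by 0.87 (adjusted p = 0.0357) and Apoe by 1.31 (SE 0.35, adjusted p = 0.0352), each without overlap. Macrophage markers summed to 689 to 712 in LSK, under the 874 to 1080 of GMP. Elovl6, at 8.67, 8.29 and 8.54 in LSK, was over all GMP arrays without being called (0.99, SE 0.34, adjusted p = 0.0876). Srebf2 and Abca1 were called whichever array was left out, and the other 8 were not. Without LSK 1 the count was 2, without LSK 2, LSK 3 or GMP 1 it was 3, and within tag A it was 6.

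From the other lists, Acss2, which makes acetyl-CoA from acetate, was higher in LSK (adjusted p = 0.00259), where 3 of 3 arrays were over 60 against 1 of 4 in GMP. Also higher were Nfya (0.98, adjusted p = 0.0266) and Mylip, an LXR target that marks lipoprotein receptors for breakdown (1.10, adjusted p = 0.0266). Tmem97, a sterol-binding membrane protein, was lower (-1.05, adjusted p = 0.0231). Lpin1 (1.65, adjusted p = 0.000383) and Lpin2 (0.93, adjusted p = 0.0127), phosphatases of triglyceride synthesis, were higher, and Dgat2 was lower (-0.91, adjusted p = 0.00628). Acadm, of fatty acid oxidation, was higher by 0.60 (adjusted p = 0.0392). In all, 6 genes of these 5 lists were higher and 2 were lower, of 52 tested (15.4%).

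In leukemic GMP no gene of the set was called against normal GMP, where 5.23% of all genes tested were (3.62% as higher and 1.61% as lower). This comparison sets the stem cells of overt leukemia beside the normal cells that share their surface type. limma had 12 of 33 genes at an unadjusted p under 0.05, a count given without the share of all genes at that cut. A positive difference was seen for 26 of the 33, and the median of the 33 was 0.38, against 0.03 over all genes. That median was 0.16 without L-GMP 2, 0.21 without L-GMP 3 and 0.24 without GMP 2, and within tag A, where L-GMP 1 is the 1 L-GMP array, it was 0.06. Fdft1 came nearest, at 7.64, 7.87 and 7.81 in L-GMP against 6.66, 5.97, 6.85 and 7.25 in GMP, a difference of 1.09 (SE 0.29, adjusted p = 0.0736) with no overlap. Next were Elovl5 (-0.85, SE 0.28, adjusted p = 0.147) and Scd2 (-0.55, SE 0.19, adjusted p = 0.17). Srebf1 (0.07, adjusted p = 0.91), Srebf2 (0.15, adjusted p = 0.875) and Scap (-0.31, adjusted p = 0.532) were not called.

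Array L-GMP 1 stood apart from the other L-GMP arrays in many of these genes. Cyp51 read 5.43 on L-GMP 1 and 6.91 and 6.89 on the others, Fdps read 8.22 against 10.07 and 10.17, and Elovl5 read 11.20 against 10.18 and 10.24. In each case L-GMP 1 lay within the range of normal GMP, or below it for Fdps. Without L-GMP 1, 5 genes were called: Cyp51 (1.55, adjusted p = 0.0169), Fdps (1.05, adjusted p = 0.0296), Msmo1 (1.13, adjusted p = 0.0391) and Abca1 (1.08, adjusted p = 0.0383) as higher and Elovl5 (-1.18, adjusted p = 0.0109) as lower. Without both L-GMP 1 and GMP 2, a setting chosen after seeing the data, 12 were called, 8 higher and 4 lower. That setting added Hmgcs1, Pmvk, Fdft1 and Fads1 as higher and Mvk, Scd2 and Abcg1 as lower. The share of all genes called in these settings is not given here. The 5.23% above belongs to the fit with all arrays and cannot be set beside these counts. Markers of mature neutrophils summed to 54165 on L-GMP 1 and to 4864 and 2438 on L-GMP 2 and L-GMP 3, and those of mast cells, basophils and eosinophils to 1832 against 483 and 545. These sums and the wide 3′ to 5′ gap of L-GMP 1 stand beside the values above, and their part in them was not tested. Without L-GMP 3, 1 gene was called.

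Of the other lists, Cyp27a1, an enzyme that oxidises cholesterol to an LXR ligand, was higher in L-GMP than in GMP (1.44, SE 0.33, adjusted p = 0.0431), the 1 gene called of 51 tested.

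Against LSK, leukemic GMP had 4 genes of the set higher and 4 lower, where 17.9% of all genes tested were called, 7.11% as higher and 10.8% as lower. Scd2 had no L-GMP array near LSK, at 9.13, 9.16 and 8.92 against 10.32, 10.31 and 10.07, with a difference of -1.17 (SE 0.18, adjusted p = 0.00493). Its other probe sets gave -0.81 and -1.05. Abcg1 differed by -1.66 (SE 0.33, adjusted p = 0.0137), Srebf2 by -1.35 (SE 0.32, adjusted p = 0.026, second probe set -0.12) and Elovl6 by -1.06 (SE 0.30, adjusted p = 0.0477). Apoc2 was under 60 on all LSK arrays and read 7.95, 8.70 and 6.64 in L-GMP, at least 3.62-fold higher (adjusted p = 0.0192). Macrophage markers summed to 1152 to 2272 in L-GMP against 689 to 712 in LSK, and their part was not tested. Tm7sf2 (1.03, SE 0.25, adjusted p = 0.0283) and Sc5d (0.99, SE 0.23, adjusted p = 0.0266) were higher, as was Mvd, whose LSK arrays were all under 60, by at least 1.40-fold (adjusted p = 0.0491). Srebf1 (-0.16, adjusted p = 0.691) and Scap (-0.11, adjusted p = 0.756) were not called. Scd2 was the 1 gene called with every array left out. The count was 1 without LSK 1 or LSK 2, 2 without LSK 3, 4 without L-GMP 2 and 14 without L-GMP 1. Erythroid and megakaryocyte markers had 5 of 7 called lower in L-GMP. Of the other lists, 3 genes were higher and 6 lower of 52 tested (17.3%). Acss2 was lower (adjusted p = 0.014), with 1 of 3 L-GMP arrays over 60 against 3 of 3 in LSK. Acsl4, an acyl-CoA synthetase, had no L-GMP array over 60 and was at least 1.36-fold lower (adjusted p = 0.0287). Lpin1 (-1.26, adjusted p = 0.00437), Nfya (-1.15, adjusted p = 0.0234), Acadm (-0.60, adjusted p = 0.0482) and Lpin2 (-0.60, adjusted p = 0.0498) were lower. Plin2 (1.19, adjusted p = 0.0163), Mid1ip1, an activator of acetyl-CoA carboxylase (1.18, adjusted p = 0.0115), and Acads, of fatty acid oxidation (0.65, adjusted p = 0.0494), were higher.

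Set against GMP that had carried the same oncogene for 36 hours, leukemic GMP had 5 genes lower and 0 higher, where 11.6% of all genes tested were called, 5.7% as higher and 5.92% as lower. Overt leukemia and culture cannot be told apart here. Idi1 read 7.40, 7.99 and 8.08 in L-GMP and 8.93, 9.30, 8.76 and 9.10 in MT2, a difference of -1.20 (SE 0.21, adjusted p = 0.0106). Msmo1 differed by -1.31 (SE 0.28, adjusted p = 0.0234), Scd2 by -1.13 (SE 0.15, adjusted p = 0.00327), Elovl5 by -1.02 (SE 0.26, adjusted p = 0.0395) and Mvk by -0.81 (SE 0.19, adjusted p = 0.0286). None of these 5 had overlapping groups, and the share of all called genes without overlap was not counted. Srebf1 (0.06, adjusted p = 0.872), Srebf2 (-0.40, adjusted p = 0.387) and Scap (0.26, adjusted p = 0.415) were not called. Idi1 and Scd2 were called with every array left out. The count was 3 without MT2 1, 2 without each other MT2 array, 12 without L-GMP 1, and 3 without L-GMP 2 or L-GMP 3. From the other lists, Cyp27a1 was higher in L-GMP (1.23, adjusted p = 0.0435) and Acsl4, with no L-GMP array over 60, at least 1.41-fold lower (adjusted p = 0.0161), as 2 called of 53 tested (3.77%).

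The oncogenes were next compared with the GFP control, which asks what each does within 36 hours. No sterol synthesis enzyme was called in any of these comparisons: the 17 enzymes had a median difference of -0.23 for MT2, -0.28 for NHA9 and -0.02 for AE, against 0.06, 0.06 and 0.10 over all genes. The 3 comparisons share the GFP arrays. The share of the set's tested genes that was called was near or under that of all genes. It was 6.06% for MT2 beside 12%, 0% for NHA9 beside 0.188% and 12.1% for AE beside 12.1%. The called genes were Scd2 and Apoc2 for MT2, and Srebf2, Abca1, Npc1 and Apoc2 for AE. None of these calls held in every alternative limma fit.

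**Figure D4:**
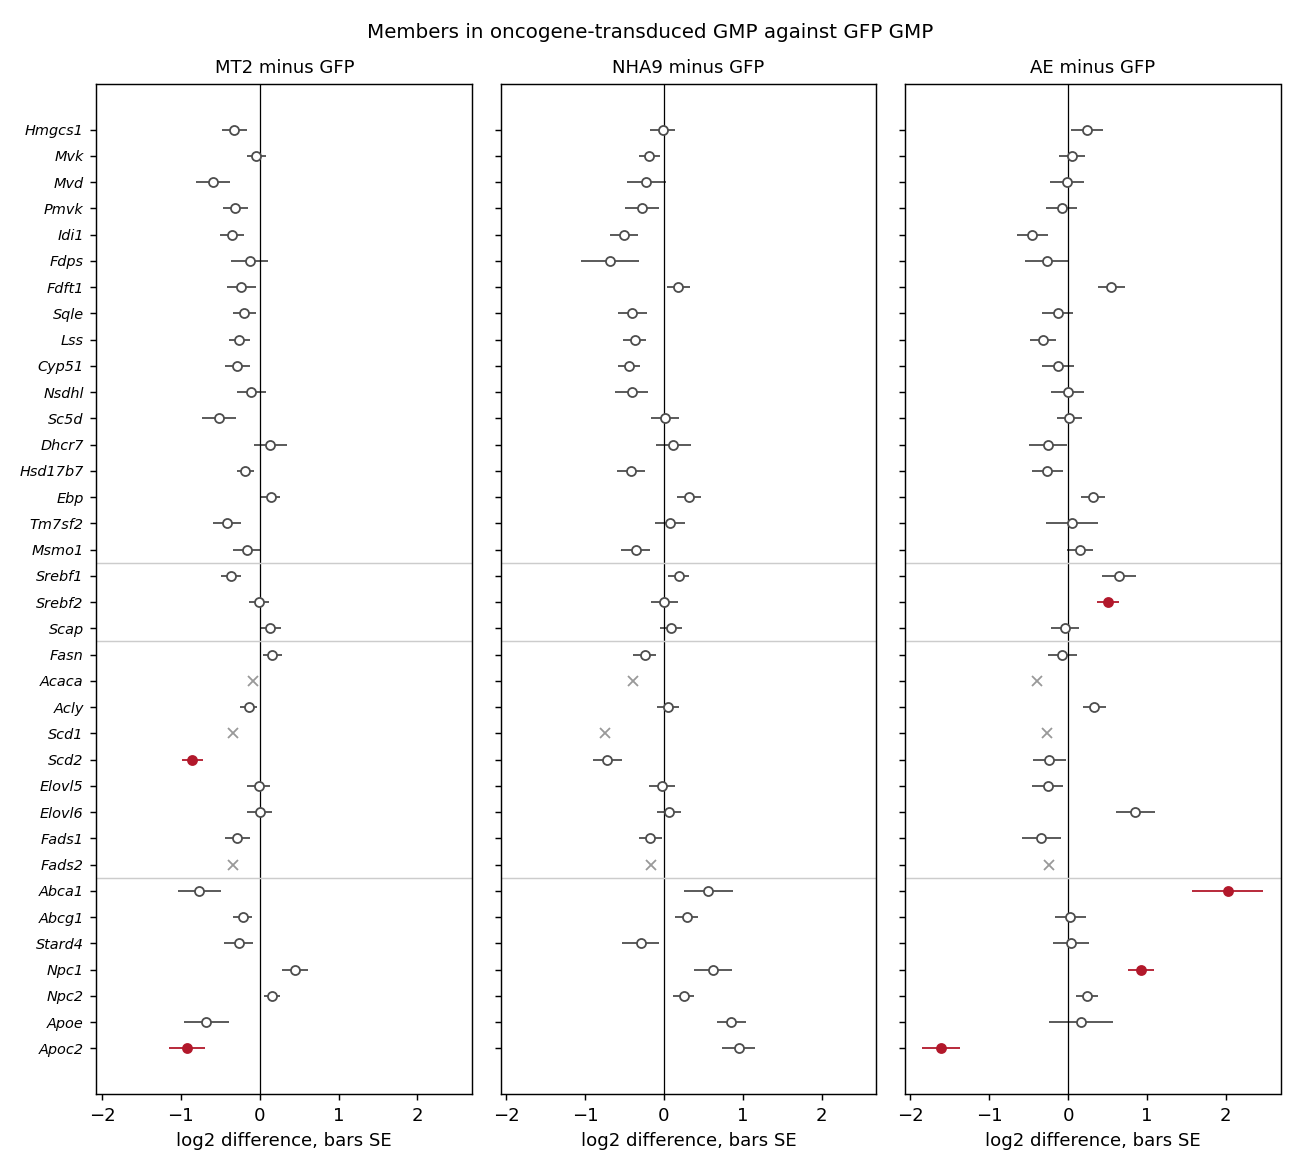
Rows are the genes of the set and panels the comparisons of MT2, NHA9 and AE with GFP GMP; points are log2 differences with SE bars, filled red where the adjusted p was under 0.05, open where not, and crosses where not tested. MT2 has 2 filled points (Scd2 and Apoc2), NHA9 0 and AE 4 (Srebf2, Abca1, Npc1 and Apoc2).

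In MT2 cells 2 genes were lower and 0 higher of 33 tested, where 12% of all genes tested were called, 8.8% as higher and 3.22% as lower. Scd2 read 10.04, 10.40, 10.13 and 10.21 in MT2, all under the 3 GFP arrays, with a difference of -0.85 (SE 0.14, adjusted p = 0.00901) and -0.27 and -0.20 at its dimmer probe sets. Apoc2 read 6.82, 7.48, 7.92 and 6.98 in MT2 against 8.23, 8.33 and 8.13 in GFP GMP. The highest MT2 array was under the lowest GFP array, and the difference was -0.92 (SE 0.23, adjusted p = 0.0314). Abca1 (-0.77, adjusted p = 0.0942), Srebf1 (-0.36, SE 0.13, adjusted p = 0.0949), Srebf2 (-0.01, adjusted p = 0.967) and Scap (0.14, adjusted p = 0.521) were not called. With the tag as a factor in a fit to all 24 arrays, Apoc2 was not called (-0.73, adjusted p = 0.319). Markers of mature neutrophils had 4 of 7 called lower in MT2, with sums of 7757 to 20273 against 30291 to 35428 in GFP GMP, and their part was not tested. Scd2 was called with every array left out. The count was 4 without MT2 3, and 1 without MT2 1 or without any of the GFP arrays. From the other lists, 7.84% of 51 genes were called. Dgat2 was lower (-0.93, adjusted p = 0.0197), and Mid1ip1 (0.63, adjusted p = 0.028), Osbp, an oxysterol carrier (0.46, adjusted p = 0.0211), and Nfya (0.44, adjusted p = 0.0417) were higher.

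In NHA9 cells no gene of the set was called, where 0.188% of all genes tested were (0.173% as higher and 0.0145% as lower). limma had 8 at an unadjusted p under 0.05, and the share of all genes at that cut is not given here. Apoe read 12.18, 12.14 and 12.66 in NHA9 against 11.63, 11.51 and 11.27 in GFP GMP, a difference of 0.86 (SE 0.18, adjusted p = 0.158) without overlap. Apoc2 differed by 0.95 (SE 0.21, adjusted p = 0.19) and Scd2 by -0.72 (SE 0.18, adjusted p = 0.27), also without overlap. Macrophage markers summed to 4319 to 5160 in NHA9, over the 1983 to 2958 of GFP GMP, and their part was not tested. Srebf1 (0.19, adjusted p = 0.633), Srebf2 (0.01, adjusted p = 0.989) and Scap (0.09, adjusted p = 0.824) were not called. Without NHA9 3, which leaves tag A alone, Apoe was called higher (0.69, adjusted p = 0.0477) and Fdps lower (-1.13, adjusted p = 0.0423).

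In AE cells 3 genes were higher and 1 lower, where 12.1% of all genes tested were called, 9.68% as higher and 2.43% as lower. Abca1 read 6.98, 8.89, 9.09 and 8.83 in AE against 6.43, 6.79 and 6.04 in GFP GMP. AE 1 was just over the highest GFP array and the other 3 AE arrays were far over it. The difference was 2.02 (SE 0.45, adjusted p = 0.0218). AE 1 is also the 1 AE array of tag A, and AE arrays 2 to 4 carry tag B. The other arrays of tag B, MT2 4 (5.95) and GMP 4 (5.68), lay within the ranges of their groups. With 1 array in each group, they cannot show the part of the tag in AE. With the tag as a factor in a fit to all 24 arrays the Abca1 difference was 1.41 (adjusted p = 0.0252). The Abca1 call was lost with the replicate number as a block. It was also lost without any 1 of AE 2, AE 3, AE 4 or the GFP arrays (adjusted p up to 0.0795). A fit within tag A rests on AE 1 alone. Npc1 read 6.53, 6.75, 6.86 and 6.92 in AE and 5.83, 5.62 and 6.07 in GFP GMP, all AE arrays being higher, by 0.93 (SE 0.16, adjusted p = 0.00816). Npc1 was not called with the tag as a factor (0.87, adjusted p = 0.0662), with the replicate number as a block or without GFP 2 (adjusted p = 0.0552).

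Srebf2 read 7.89, 8.09, 8.00 and 8.01 in AE against 7.51, 7.32 and 7.64 in GFP GMP. The groups did not overlap and differed by 0.51 (SE 0.14, adjusted p = 0.0452), while the second probe set differed by 0.07. Srebf2 was not called with the tag as a factor (0.19, adjusted p = 0.673). Srebf1 read 9.67, 9.04, 8.84 and 9.59 in AE, also over every GFP array, without being called (0.64, SE 0.22, adjusted p = 0.0834). Elovl6 behaved alike (0.85, SE 0.25, adjusted p = 0.053), and Scap did not differ by more than its error (-0.04, SE 0.18, adjusted p = 0.915). Srebf1 was called with the tag as a factor (0.78, adjusted p = 0.0240). Fdft1 differed by 0.55 (adjusted p = 0.0701), and its other bright probe set by -0.04.

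Apoc2 was lower in AE, at 7.33, 6.43, 6.47 and 6.23 against 8.23, 8.33 and 8.13. No array overlapped, and the difference of -1.61 (SE 0.24, adjusted p = 0.00403) was called with every array left out. It was not called with the tag as a factor (-1.02, adjusted p = 0.123). Apoe, its neighbour in function, differed by 0.17 (SE 0.40, adjusted p = 0.82), with AE 4 at 10.36 and the other AE arrays between 11.77 and 12.44. Macrophage markers summed to 2094 to 4573 in AE, with 1 of 7 called higher than in GFP GMP. Markers of mast cells, basophils and eosinophils had 2 of 4 called higher, with sums of 888 to 1641 against 584 to 749, and erythroid and megakaryocyte markers 1 of 3, with 2242 to 4921 against 654 to 908. Their part was not tested. The count of called genes was 1 without GFP 2 and 2 without AE 2, AE 4, GFP 1 or GFP 3.

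Genes of the other lists were higher in AE cells where they were called, 8 of 53 tested with 0 lower (15.1%, beside 12.1% of all genes). They included Cd36, a scavenger receptor for lipids (adjusted p = 0.0359), over 60 on 2 of 4 AE arrays and 0 of 3 GFP arrays, with a mean under 60 in both groups. Fabp5 (1.23, adjusted p = 0.0156), Mylip (0.88, adjusted p = 0.00988), Acsl4 (0.79, adjusted p = 0.012), Mcat, of mitochondrial fatty acid synthesis (0.56, adjusted p = 0.0408), and Slc25a20, the carnitine carrier (0.70, adjusted p = 0.0193), were also higher. So were Cyb5r3, a reductase that feeds electrons to lipid desaturation (0.80, adjusted p = 0.0216), and Ggps1, which makes geranylgeranyl diphosphate and had no GFP array over 60, by at least 1.36-fold (adjusted p = 0.0288).

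With the 11 oncogene arrays joined as 1 class against GFP, no gene of the set was called, and 0% of all genes tested were. limma had 5 of the 33 at an unadjusted p under 0.05, again without the share of all genes at that cut. The smallest adjusted p of the set was that of Npc1 (0.67, SE 0.20, adjusted p = 0.299), whose groups did not overlap. Scd2 (-0.59, adjusted p = 0.405) and Idi1 (-0.43, adjusted p = 0.407) followed. Srebf1 (0.15, adjusted p = 0.86), Srebf2 (0.18, adjusted p = 0.702) and Scap (0.06, adjusted p = 0.894) were not called.

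Pairs of oncogenes were compared directly in 1 model over the 14 arrays of transduced cells. MT2 cells had 9 genes lower than AE cells and 0 higher, where 30.1% of all genes tested were called, 12.1% as higher and 17.9% as lower. Abca1 showed the largest difference, with MT2 arrays at 5.00, 5.47, 6.20 and 5.95 and AE arrays between 6.98 and 9.09. The groups did not overlap, and MT2 differed by -2.79 (SE 0.41, adjusted p = 0.000262). Both SREBP genes were lower in MT2. Srebf1, at 8.12, 8.54, 8.28 and 8.17 in MT2, differed by -1.01 (SE 0.17, adjusted p = 0.000808) and Srebf2 by -0.52 (SE 0.13, adjusted p = 0.00676, second probe set -0.28). Scap was not called (0.17, adjusted p = 0.425).

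Enzymes differed between MT2 and AE by smaller amounts. Fdft1 differed by -0.78 (SE 0.18, adjusted p = 0.00488), with a second probe set at -0.17, Mvd by -0.58 (adjusted p = 0.029) and Hmgcs1 by -0.56 (adjusted p = 0.0329). In fatty acid synthesis, Elovl6 differed by -0.85 (SE 0.20, adjusted p = 0.00556), Scd2 by -0.61 (adjusted p = 0.0189) and Acly by -0.47 (adjusted p = 0.00805). Groups overlapped for Hmgcs1 and Elovl6 and not for the other 7 of the 9. The share of all called genes without overlap was not counted. With the tag as a factor in a fit to all 24 arrays, 3 of the 9 were not called: Hmgcs1 (-0.52, adjusted p = 0.137), Srebf2 (-0.31, adjusted p = 0.297) and Elovl6 (-0.81, adjusted p = 0.0547). Markers of mature neutrophils had 6 of 8 called lower in MT2, with sums of 7757 to 20273 against 28705 to 33154 in AE. Those of mast cells, basophils and eosinophils had 3 of 4 called lower, with 447 to 586 against 888 to 1641. Their part in the differences of the set was not tested.

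Of the other lists, 15 genes were lower in MT2 than in AE and 6 higher, of 53 tested (39.6%, beside 30.1% of all genes). Genes of fat storage and breakdown were lower where called, among them Plin2 (-1.56, SE 0.27, adjusted p = 0.000765), Lpin2 (-0.71, adjusted p = 0.0143), Plin3 (-0.56, adjusted p = 0.00715) and Pnpla2, the first lipase of lipid droplets (-0.44, adjusted p = 0.00873). In fatty acid oxidation, Cpt1a and Cpt2, which pass fatty acids into mitochondria, differed by -0.75 (adjusted p = 0.00607) and -0.44 (adjusted p = 0.0482), and Slc25a20 by -0.39 (adjusted p = 0.0294). In fatty acid handling, Acsl4 was lower (-0.89, adjusted p = 0.000394), as was Cd36 (adjusted p = 0.00168), whose mean was under 60 in both groups. The elongation enzymes Hsd17b12 (0.64, adjusted p = 0.00223) and Tecr (0.35, adjusted p = 0.0291) were higher. In efflux and LXR control, Mylip (-0.69, adjusted p = 0.00191), Lpcat3, which remodels phospholipids (-0.64, adjusted p = 0.00653), and Scarb1 (-0.62, adjusted p = 0.00416) were lower and Osbp was higher (0.48, adjusted p = 0.00333). Cyb5r3 was lower (-0.51, adjusted p = 0.0135), while Tmem97 (0.52, adjusted p = 0.0344), Dhdds, of dolichol synthesis (0.41, adjusted p = 0.04), and Nfyb, a subunit of NF-Y (0.38, adjusted p = 0.043), were higher.

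**Figure D5:**
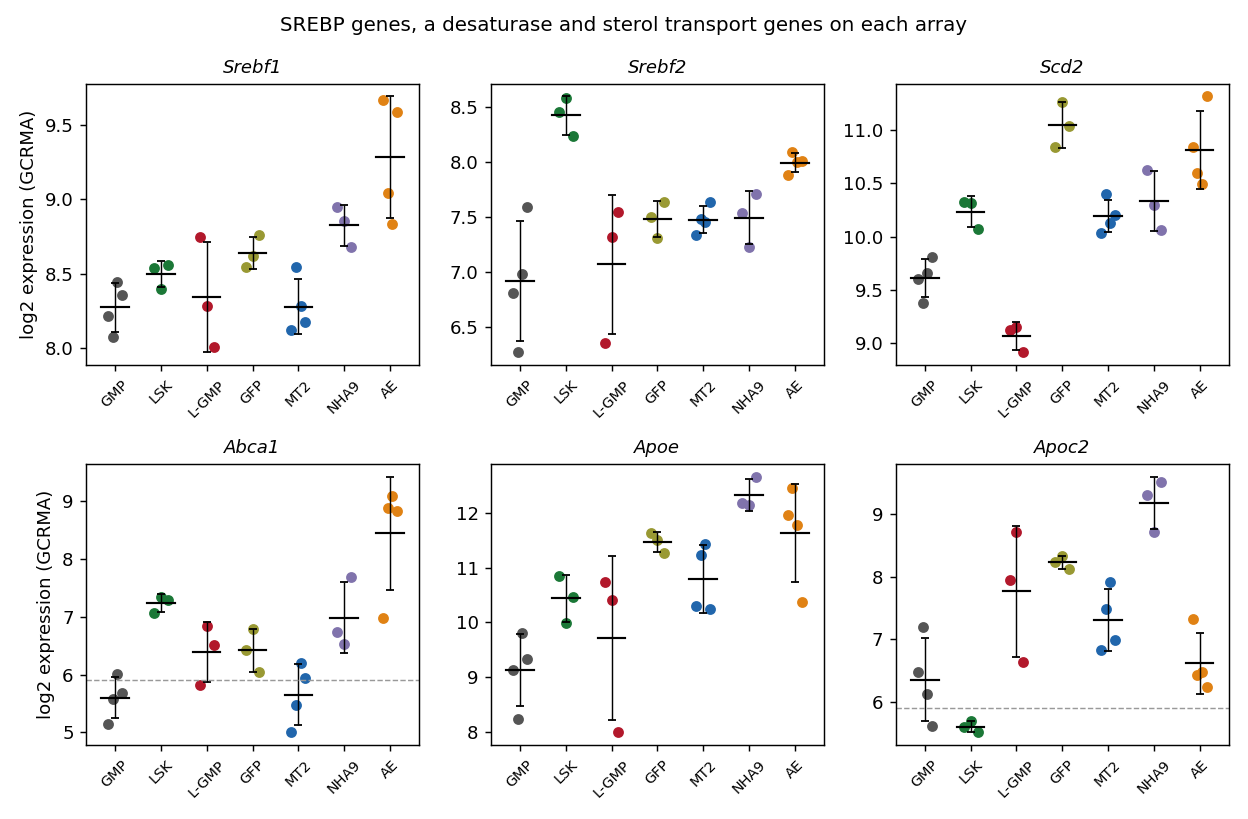
Points are arrays, grouped along the horizontal axis, with the log2 value on the vertical axis, bars for mean and SD per group and a dashed line at 60 where it falls in the panel. Abca1 lies between 8.83 and 9.09 on AE arrays 2 to 4 and between 5.00 and 6.20 in MT2, and Apoc2 lies between 8.70 and 9.51 in NHA9 and between 6.23 and 7.33 in AE.

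Apoc2 was higher in NHA9 cells than in both other oncogene groups. The GFP arrays lay between, at 8.13 to 8.33. Against GFP, Apoc2 was called lower in MT2 and in AE and was not called in NHA9. Against NHA9, MT2 had 2 genes lower and 0 higher, where 8.03% of all genes tested were called, 3.38% as higher and 4.65% as lower. Apoc2 read 9.31, 8.70 and 9.51 in NHA9, over every MT2 array, and MT2 differed by -1.87 (SE 0.28, adjusted p = 0.00223). Apoe read 10.29, 11.22, 11.43 and 10.24 in MT2 and differed by -1.53 (SE 0.40, adjusted p = 0.0299), without overlap. Srebf1 (-0.55, adjusted p = 0.0909), Srebf2 (-0.02, adjusted p = 0.962) and Scap (0.05, adjusted p = 0.912) were not called, and Abca1 differed by -1.33 (adjusted p = 0.0833). Macrophage markers summed to 1500 to 3630 in MT2 and 4319 to 5160 in NHA9, and their part in the Apoe and Apoc2 values was not tested. Markers of mature neutrophils had 3 of 8 called lower in MT2, with 25708 to 31638 in NHA9. The count was 4 without AE 1, and 1 without MT2 1 or without any of the NHA9 arrays. From the other lists, 5.88% of 51 genes were called. Mid1ip1 was higher in MT2 (0.82, adjusted p = 0.0288), and Dgat2 (-0.79, adjusted p = 0.0421) and Dgat1 (-0.53, adjusted p = 0.0349) were lower.

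Against AE, NHA9 had 1 gene higher and 2 lower, where 8.1% of all genes tested were called, 3% as higher and 5.1% as lower. Apoc2 was higher in NHA9 by 2.56 (SE 0.29, adjusted p = 0.000148) and was called with every array left out. Srebf2 differed by -0.50 (SE 0.14, adjusted p = 0.0367) and Elovl6 by -0.79 (SE 0.22, adjusted p = 0.0381), each without overlap, and the second Srebf2 probe set differed by -0.01. With the tag as a factor Srebf2 (-0.31, adjusted p = 0.621) and Elovl6 (-0.84, adjusted p = 0.276) were not called. Srebf1 (-0.46, adjusted p = 0.168) and Scap (0.13, adjusted p = 0.722) were not called. The count was 1 without NHA9 1, NHA9 2, AE 2 or AE 4. Macrophage markers summed to 2094 to 4573 in AE against 4319 to 5160 in NHA9, and their part in the Apoc2 values was not tested. Markers of mast cells, basophils and eosinophils had 2 of 4 called lower in NHA9 and mature neutrophil markers 1 of 8. Of 53 genes of the other lists 11.3% were called. Plin2 (-1.01, adjusted p = 0.0484), Acsl4 (-0.88, adjusted p = 0.0025), Mcat (-0.65, adjusted p = 0.00691), Mylip (-0.61, adjusted p = 0.0214) and Lpcat3 (-0.61, adjusted p = 0.0379) were lower in NHA9 and Tecr was higher (0.48, adjusted p = 0.0287).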

How the data were processed

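Amplified RNA of 24 mouse samples was hybridised to Mouse Genome 430A 2.0 arrays. The deposited values are log2 expression estimates that the authors made with GCRMA 2.4.1 after removing outlier arrays, per the series' design text. They were used without further normalization. Of 22690 probe sets, 64 controls were left out, 20380 had 1 gene symbol, 691 several and 1555 none in the platform annotation, and the brightest of a gene stood for it. Each comparison was a linear model with moderated variance (limma 3.58.1, run under R 4.3.3) on the arrays of its groups, and p-values were adjusted by Benjamini-Hochberg over all probe sets with over 60 on 2 arrays of a compared group. A fold marked "at least" takes the group whose arrays were all under 60 at 60. No label gives replicate identity beyond a number. Arrays of the same number were not treated as pairs, since in no comparison were all same-number correlations over 0.1. Some were higher, such as 0.50 for replicate 1 of NHA9 and AE and 0.27 for replicate 3 of GFP and GMP. Pairing of some arrays is therefore not excluded. Every gene of the set is named, with every call in each comparison, Srebf1, Srebf2 and Scap throughout, the 3 smallest adjusted p where under 3 were called, and up to 4 called genes of each of 5 other pathway lists. The members and lists were chosen with earlier results of these data known. The fitting code was tested on simulated data. Alternatives covered normalization, filter, probe sets, samples fitted, array tag, replicate number and arrays left out. Promoters came from RefSeq, GRCm38.p6.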

Additional observations from a re-analysis of the deposited data

Results flagged for a closer look

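In 6 of 108 groups of 4 arrays (1 gene in 1 group each), 1 array stood far from the rest, where chance gives about 1 in 20. Abca1 read 6.98 on AE 1 and 8.83 to 9.09 on the other AE arrays, and Mvk read 7.38 on AE 1 against 6.84 to 6.87. AE 1 is the AE array with tag A. On GMP 2, Hmgcs1 read 9.53 against 10.28 to 10.41 and Dhcr7 read 6.46 against 6.89 to 6.94. Lss read 7.37 on AE 4 against 6.91 to 6.97, and Fads2, under the level of 60, read 5.72 on MT2 4 against 5.41 to 5.42.

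The effects of 2 oncogenes, each against the same GFP arrays, differed in 14 cases by the limma contrast between them. These calls were near the share of all genes. For MT2 against AE, 27.3% of the set's tested genes were called, beside 30.1% of all genes. The shares were 6.06% beside 8.03% for MT2 against NHA9 and 9.09% beside 8.1% for NHA9 against AE. MT2 minus AE was -2.79 for Abca1, -1.01 for Srebf1, -0.85 for Elovl6, -0.78 for Fdft1, -0.61 for Scd2, -0.58 for Mvd, -0.56 for Hmgcs1, -0.52 for Srebf2 and -0.47 for Acly. MT2 minus NHA9 was -1.87 for Apoc2 and -1.53 for Apoe. NHA9 minus AE was 2.56 for Apoc2, -0.79 for Elovl6 and -0.50 for Srebf2.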

How the results depend on the processing

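Among 1780 alternative values of named genes, 1480 kept their side of the threshold, 271 lost the call and 29 gained it. No gene changed direction where it was called in the main fit or in the alternative. Genes called in neither did so in places. Srebf1 in L-GMP against GMP was positive in the main fit and -0.13 without L-GMP 1. Leaving out 1 array at a time gave 13 to 24 called genes for GFP against GMP, 2 to 14 for LSK against GMP, 0 to 5 for L-GMP against GMP, 1 to 14 for L-GMP against LSK, 2 to 12 for L-GMP against MT2, 1 to 4 for MT2 against GFP, 0 to 2 for NHA9 against GFP, 1 to 6 for AE against GFP, 0 for all oncogenes against GFP, 1 to 4 for MT2 against NHA9, 8 to 11 for MT2 against AE and 1 to 4 for NHA9 against AE. The methods' t-test with the same adjustment called 5 genes for GFP against GMP, 1 each for LSK against GMP, L-GMP against LSK, L-GMP against MT2 and MT2 against AE, and 0 for MT2 and for AE against GFP, for MT2 against NHA9 and for NHA9 against AE. Within tag A, 6 were called for LSK against GMP, 2 for NHA9 against GFP and 7 for MT2 against NHA9. The tag A counts of 14 for L-GMP against LSK and 11 against MT2 rest on L-GMP 1 alone, the array that stood apart, and say nothing of the other L-GMP arrays. With the tag as a factor the counts were 4 for L-GMP against GMP, 13 against LSK, 9 against MT2, 1 for MT2 and 2 for AE against GFP, and 1 for NHA9 against AE. A fit to all 24 arrays called 11 for L-GMP against GMP, 8 against MT2, 1 for MT2 against GFP and 1 for MT2 against NHA9. Quantile normalization called 1 for L-GMP against GMP, and leaving out GMP 2 and L-GMP 1 called 12. The mean of a gene's probe sets called 1 for MT2 and 2 for AE against GFP and 5 for MT2 against AE, and no filter called 1 for NHA9 against AE. The replicate number was also fitted as a block, although no label ties arrays of the same number together. The counts were then 20 for GFP against GMP, 11 for LSK against GMP, 0 for L-GMP against GMP, 5 against LSK and 0 against MT2. They were 2, 0 and 1 for MT2, NHA9 and AE against GFP, and 0 for all oncogenes. For pairs of oncogenes they were 4 for MT2 against NHA9, 11 for MT2 against AE and 1 for NHA9 against AE. The share of all genes called moved with the setting too. For GFP against GMP it was 16.6% in the main fit, 5.80% with the methods' t-test and 26.6% with quantile normalization. Most counts in this paragraph stand without that share, so a change in count is not a change of the set alone. The causes of these changes were not tested. The number of arrays limits the precision, and genes near 60 have only a bound.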
